A study of Mus musculus with 2 samples.

Results

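Cxcl9-expressing macrophages of the library titled positive were described from single-cell RNA data of Balb/c mouse brain. The cells were selected on measured UMI counts (unique molecular identifiers, 1 per captured RNA molecule) by 5 gates. A cell had to hold at least 15 UMIs of the myeloid genes Tyrobp, Fcer1g and Ctss summed, at most 1 UMI of the neutrophil gene Csf3r and at most 5 UMIs of the epithelial genes Epcam, Krt8 and Krt18. It also had to hold at most 3 UMIs of the microglia genes P2ry12, Tmem119, Siglech and Cx3cr1, and at least 3 UMIs of Cxcl9. These gates kept 491 of 10842 barcodes of the library, or 4.53% (exact Clopper-Pearson 95% interval 4.14 to 4.94%). They were compared with the 1039 barcodes that passed the first 4 gates and held no Cxcl9 UMI.

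The study modelled brain metastasis of breast cancer in mice and compared 1 library titled control with 1 titled positive. Both were made from polyA RNA of brain tissue with the Singleron GEXSCOPE kit, which captures cells on a microfluidic chip. The treatment labels go against the titles. By the former, the titled control mice carried metastases of 4T1, a mammary carcinoma line of mouse, and the titled positive mice did not, and both are typed TNBC (triple-negative breast cancer). Titles alone name the groups here, and nothing is said of which library had metastases. The carcinoma gate took 3233 cells to 2363 in the library titled positive and left 2610 of 2610 in the library titled control. The labels used here do not give the age of the mice, their number or any pooling, so neither group can be placed beyond its strain and title. The libraries held 10842 (titled positive) and 10417 (titled control) barcodes, with median depths of 7383.5 and 4230 UMIs, and shared 149 barcode sequences. With 1 library per group no difference has a replicate check, no test was made, and every interval covers counting error only.

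Cxcl9, Cxcl10 and Cxcl11 are chemokines that bind the receptor Cxcr3, which activated T cells and NK cells carry. Macrophages are known to make Cxcl9 in answer to interferon gamma, a cytokine of T cells and NK cells, while NF-kB, the factor downstream of many inflammatory receptors, is known to add to the induction. In tumours, macrophages with Cxcl9 are often set against macrophages with Arg1 or Spp1, which are linked to repair and to suppression of T cells.

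The promoters of genes that were high together in these cells are shown because 2 kinds of motif in them belong to the inputs named above. The windows are RefSeq sequences on GRCm38.p6, each running 250 bases before to 50 bases after the start of the gene, 5′ to 3′ on the gene's strand. Both strands were searched for GAS (TTCNNNGAA, a motif of interferon gamma responses), ISRE (a pair of GAAA runs with any 2 bases between them, bound by interferon factors) and a kB core (GGGNNTTCC, bound by NF-kB and added after the promoters had been seen). Capitals mark the matches, none of which overlap. Cxcl9 lies at chr5:92328030-92328329 (minus strand), Cxcl10 at chr5:92348840-92349139 (minus strand), Ubd at chr17:37193642-37193941 (plus strand) and Ccl8 at chr11:82114935-82115234 (plus strand).
Cxcl9: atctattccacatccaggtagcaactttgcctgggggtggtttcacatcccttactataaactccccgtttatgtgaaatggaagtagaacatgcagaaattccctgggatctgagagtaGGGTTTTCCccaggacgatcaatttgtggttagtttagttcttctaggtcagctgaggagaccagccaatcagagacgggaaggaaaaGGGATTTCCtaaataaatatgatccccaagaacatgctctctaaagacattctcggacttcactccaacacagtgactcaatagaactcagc
Cxcl10: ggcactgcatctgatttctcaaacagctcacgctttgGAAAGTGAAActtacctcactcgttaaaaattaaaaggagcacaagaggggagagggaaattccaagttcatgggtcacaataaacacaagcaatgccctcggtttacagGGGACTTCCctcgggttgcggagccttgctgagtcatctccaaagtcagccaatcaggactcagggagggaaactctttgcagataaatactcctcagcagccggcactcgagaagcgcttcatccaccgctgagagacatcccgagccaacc
Ubd: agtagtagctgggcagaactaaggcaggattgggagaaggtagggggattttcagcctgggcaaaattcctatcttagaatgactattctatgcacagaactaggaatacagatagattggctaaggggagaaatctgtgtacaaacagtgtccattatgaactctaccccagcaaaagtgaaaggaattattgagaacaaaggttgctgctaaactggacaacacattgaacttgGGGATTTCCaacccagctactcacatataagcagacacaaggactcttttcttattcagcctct
Ccl8: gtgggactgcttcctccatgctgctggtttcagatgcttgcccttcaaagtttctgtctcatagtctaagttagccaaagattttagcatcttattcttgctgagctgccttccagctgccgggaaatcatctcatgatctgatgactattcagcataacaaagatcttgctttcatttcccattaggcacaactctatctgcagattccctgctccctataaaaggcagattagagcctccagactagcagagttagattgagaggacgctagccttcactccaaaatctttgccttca

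The Cxcl9 window held 2 kB matches, which began 130 and 42 bases before the start, and no GAS or ISRE match. The Cxcl10 window held 1 ISRE match, 213 bases before the start, and 1 kB match, 103 bases before it. The Ubd window held 1 kB match, 14 bases before the start. The Ccl8 window held none of the 3 motifs. Cxcl11, the other Cxcr3 ligand, lies beside Cxcl9 and Cxcl10 on chromosome 5. Over the 27025 genes of the reference table, GAS was found in 9.55%, ISRE in 3.99% and the kB core in 6.58%. Of the 12 genes with the highest ratios described below and Cxcl9, 8 had a window. The kB core stood in 5 of these 8, and GAS and ISRE in 1 each. The 5 include Cxcl9, Cxcl10 and Ubd, and the kB core was added after the promoters had been seen. Its counts here are therefore no independent check. Of the 18 interferon gamma induced GTPases (the guanylate-binding and immunity-related families), 11 had a window. ISRE stood in 10 of these 11, GAS in 6 and the kB core in 0. A match describes letters in the window only.

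Cxcl9 was spread widely over the 491 cells. They held 4455 Cxcl9 UMIs, 34.1% of the 13054 in the library, with 3 as the lowest, 6 as the median and 62 as the highest per cell. The 50 cells with most Cxcl9 held 32.5% of these UMIs. Scaled by depth, the level ran from 176 to 12684 CPM per cell (the gene's UMIs as a share of all UMIs in the cell or set, on the usual CPM scale), with a median of 1078. Of the 1914 cells that passed the first 4 gates, 25.7% were selected, 384 held 1 or 2 Cxcl9 UMIs and 1039 held none.

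**Figure D1:**
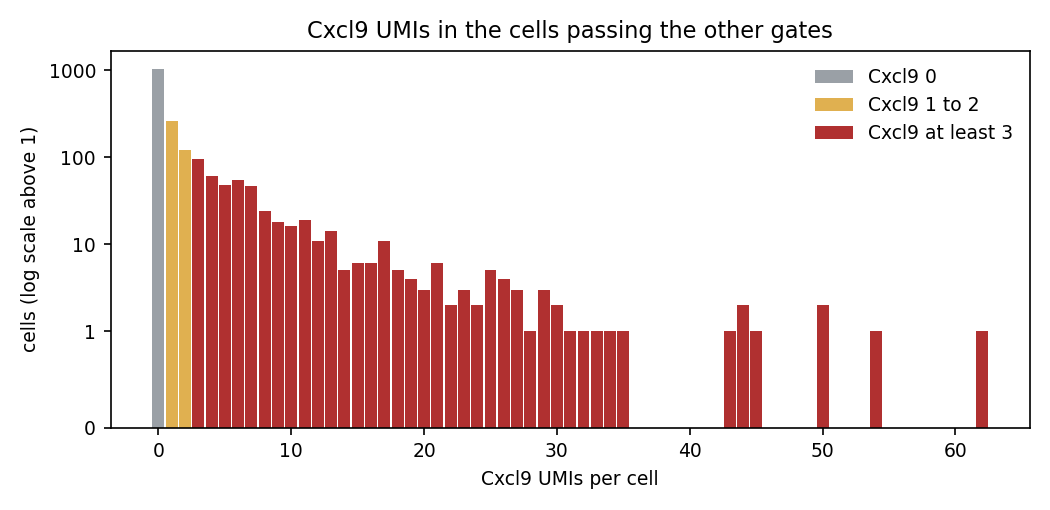
Cells of the library titled positive that passed the first 4 gates (y, number of cells, log scale above 1) by their Cxcl9 UMIs (x). The 1039 cells at 0 are grey, the 384 cells at 1 or 2 yellow and the 491 selected cells, from 3 to 62 UMIs, red; the counts fall with no gap at the threshold.

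The threshold of 3 UMIs cut a continuous distribution. The 96 cells just inside it, at 3 UMIs, had Cxcl11 at 209 CPM, Serpina3g at 394, Cd40 at 107 and Acod1 at 101. The 122 cells just outside it, at 2 UMIs, had Cxcl11 at 101 CPM, Serpina3g at 255, Cd40 at 62.9 and Acod1 at 82.0. Median depth was 4520.5 UMIs inside and 4711.5 outside.

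The selected cells carried a macrophage profile. All 10 macrophage markers were measured and none was at 0. Csf1r, the receptor for the macrophage growth factor, was at 595 CPM with a UMI in 90.2% of cells, against 547 CPM and 81.5% in the cells without Cxcl9. Adgre1 (F4/80) was found in 44.0% and 30.8% of cells. Of the 5 genes given as markers of these cells, Cxcl9 chose them and the other 4 (Acod1, Ccl5, Cd40 and Serpina3g) were known from earlier results of the same data, so their high levels are no independent check.

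Markers of other cells were low but not absent. Of 10 dendritic cell markers, Flt3 and Cd209a were at 0, and the list summed to 54.4 CPM against 62.5 CPM in the cells without Cxcl9. Of the 5 measured, 1 had an interval above 0 and 2 below it, with log2 ratios from -1.68 (Itgae) to 0.99 (Ccr7). At least 2 UMIs of the list were held by 27 of the 491 cells and by 51 of the 1039 without Cxcl9. Of 10 T cell markers none was at 0, and they summed to 35.8 CPM, 0.803% of the level in a T cell set of the same library, against 1.48% in the cells without Cxcl9. Of 8 NK cell markers, 7 were listed and 4 of these (Klrb1c, Eomes, Klre1 and Ncr1) were at 0. The list still summed to 101 CPM, against 304 CPM in the cells without Cxcl9. Of the 3 measured, log2 ratios ran from -3.31 (Gzma) to 0.12 (Klrk1). Of 10 microglia markers, 4 of them gate genes, none was at 0, and the list stood at 14.8% of the level in a microglia set against 17.4% in the cells without Cxcl9. Of 10 carcinoma markers none was at 0, and the list stood at 8.13% of the level in a carcinoma set against 20.03%. Of the 6 carcinoma markers measured, only Lcn2, which neutrophils also make, had an interval apart from 0, at 287 CPM against 1878 CPM, and the other 5 had intervals that include 0. The part of RNA from other cells in the values below was not tested, except where a value without such cells is given.

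The comparison set held cells of other kinds. By 7 neutrophil genes or 5 NK genes, 99 of the 1039 cells without Cxcl9 (9.53%: 80 neutrophil, 19 NK) carried RNA of these cells, against 8 of the 491 (1.63%). Cells with at least 10 UMIs of the proliferation genes were 95 (9.14%) and 16 (3.26%). The 8 neutrophil markers summed to 22626 CPM in the cells without Cxcl9 and 1673 CPM in the selected cells. Median depth was 5489 UMIs in the selected cells and 4524 UMIs in the cells without Cxcl9, and a count threshold favours deeper cells. Without the cells that carried neutrophil or NK RNA, the median log2 ratios of the gene lists described below became 0.30 for the interferon gamma induced GTPases (0.38 with them), 0.02 for interferon signalling (0.13), 0.27 for MHC class II (0.40), 0.12 for MHC class I (0.20) and 0.01 for inflammatory macrophage genes (0.11).

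A gene counted as measured when both sets together held 50 or more of its UMIs. Of 9058 such genes, 60 (0.662%) were at least 2-fold higher in the Cxcl9 macrophages and 194 (2.14%) at least 2-fold lower. Without the cells that carried neutrophil or NK RNA, 8792 genes were measured, of which 52 (0.591%) were at least 2-fold higher and 91 (1.04%) at least 2-fold lower. The median log2 ratio over all genes was -0.03. The rule chose the cells within this contrast, so these counts describe the 2 sets and support nothing further.

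The other Cxcr3 ligands were both high. Cxcl11 was at 419 CPM (396 to 443) in the Cxcl9 macrophages and 63.4 CPM (56.8 to 70.5) in the cells without Cxcl9, a log2 ratio of 2.72 (2.55 to 2.90). Cxcl10 was at 481 CPM (457 to 507) and 140 CPM (130 to 150), a log2 ratio of 1.78 (1.65 to 1.91). The interval of the log2 ratio lay above 0 for both genes, and for 913 of all 9058 measured genes (10.1%). Expression was uneven between cells: 260 of the 491 cells held a Cxcl11 UMI, 180 held a Cxcl10 UMI, 122 (24.8%) held both and 173 (35.2%) held neither. In the cells without Cxcl9, 5.49% held both and 65.6% neither. In the carcinoma set, with a median depth of 9265 UMIs, 24.6% of cells held a Cxcl10 UMI and 20.8% a Cxcl11 UMI. In the Cxcl9 macrophages 36.7% and 53.0% did. Whether these UMIs of the carcinoma set were its own RNA or RNA from other cells was not tested. With every cell thinned to 2000 UMIs the shares were 9.27% and 7.61% in the carcinoma set and 27.7% and 35.0% in the Cxcl9 macrophages. Thinning draws UMIs at random, and another draw gave 25.5% and 33.8% in the latter.

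Among 17 other chemokines measured, 2 were at least 2-fold higher and 3 at least 2-fold lower, and the median log2 ratio was -0.70. Ccl5, which draws T cells, was at 7229 CPM against 2552 CPM, a log2 ratio of 1.502 (1.47 to 1.53). Ccl8, a ligand of monocyte and T cell receptors, was at 903 CPM against 207 CPM, a log2 ratio of 2.12 (2.02 to 2.23). Ccl8 rested on fewer cells, since 146 of the 491 held a UMI and the 5 highest held 28.1% of its UMIs, and without those 5 its log2 ratio was 1.67. Cxcl16, a membrane-bound chemokine for Cxcr6 on T cells, was at 986 CPM against 547 CPM, a log2 ratio of 0.85.

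Ccl2, Ccl3, Ccl4 and Cxcl2 were lower, while Ccl7, another ligand of Ccr2, was not, at 175 CPM against 157 CPM. Ccl2, the main ligand of the monocyte receptor Ccr2, was at 333 CPM against 572 CPM, a log2 ratio of -0.78. Ccl3 was at 223 CPM against 416 CPM and Ccl4 at 513 CPM against 832 CPM. Cxcl2, a ligand of the neutrophil receptor Cxcr2, was at 505 CPM against 827 CPM, a log2 ratio of -0.71. Cxcl13, a B cell chemokine, had 261 UMIs in the cells without Cxcl9, of which 140 lay in 1 cell. Ccl9 was at 82.9 CPM against 180 CPM, a log2 ratio of -1.12. Cxcl3 had 1 UMI in the Cxcl9 macrophages and 70 in the comparison set, a log2 ratio of -4.72 with an interval from -10.62 to -2.77.

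The 12 genes with the highest ratios, among those with at least 100 UMIs in the higher set, were Ubd, Cxcl11, Dnase1l3, Gm15056, Ccl8, Cd40, Serpina3g, Acod1, Cxcl10, Vcam1, Ccl5 and Nfkbie. Ubd, a ubiquitin-like protein induced by interferon gamma and TNF, headed the list at 48.4 CPM against 4.83 CPM, a log2 ratio of 3.30. It was found in 30 of the 491 cells, and 5 cells held 75.3% of its UMIs. Without those 5 cells its log2 ratio was 1.31. Its share of cells with a UMI, 6.11%, was below the 10.9% of the carcinoma set, so a wide expression of Ubd in these cells is not read from it.

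The other genes of that group were spread over more cells. Cd40, the receptor through which helper T cells activate macrophages, was at 141 CPM against 35.9 CPM, with a UMI in 44.4% and 13.4% of cells. Only 2.18% of carcinoma cells held one. Serpina3g, an inhibitor of cysteine proteases, was at 578 CPM against 162 CPM and was found in 74.3% and 34.2% of cells, against 10.2% of carcinoma cells. Acod1, which makes itaconate in activated macrophages, was at 175 CPM against 50.2 CPM, found in 34.2% and 15.4% of cells, against 2.05% of carcinoma cells.

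Dnase1l3, a secreted nuclease that clears DNA of dead cells, was at 64.7 CPM against 10.97 CPM, and 104 of the 491 cells held a UMI. Gm15056 was at 257 CPM against 45.5 CPM and was found in 24.6% and 5.49% of cells. Vcam1, an adhesion molecule that binds lymphocyte integrins, was at 371 CPM against 112 CPM. It was found in 44.6% of the Cxcl9 macrophages and 47.2% of the deeper carcinoma cells, or 28.7% and 17.4% once thinned. Nfkbie, an inhibitor of NF-kB that NF-kB itself induces, was at 72.6 CPM against 28.4 CPM. Weighting the comparison set to the depth of the selected cells gave these 12 genes log2 ratios from 1.56 (Vcam1) to 3.57 (Ubd).

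Genes most like Cxcl9 were taken by Pearson correlation of log-scaled counts across the 1914 gated cells, among 3154 genes found in at least 20% of the Cxcl9 macrophages. The values share cells and depth with the rule and are a description. The order was Cxcl11 at 0.43, Serpina3g at 0.39, Cd40 at 0.33, Sod2 at 0.32 and Ccl5 at 0.30, followed by Cxcl16, C3, Marcksl1, AW112010 and Ctsz, the last at 0.25. Sod2, the mitochondrial superoxide dismutase, was at 696 CPM against 331 CPM.

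**Figure D2:**
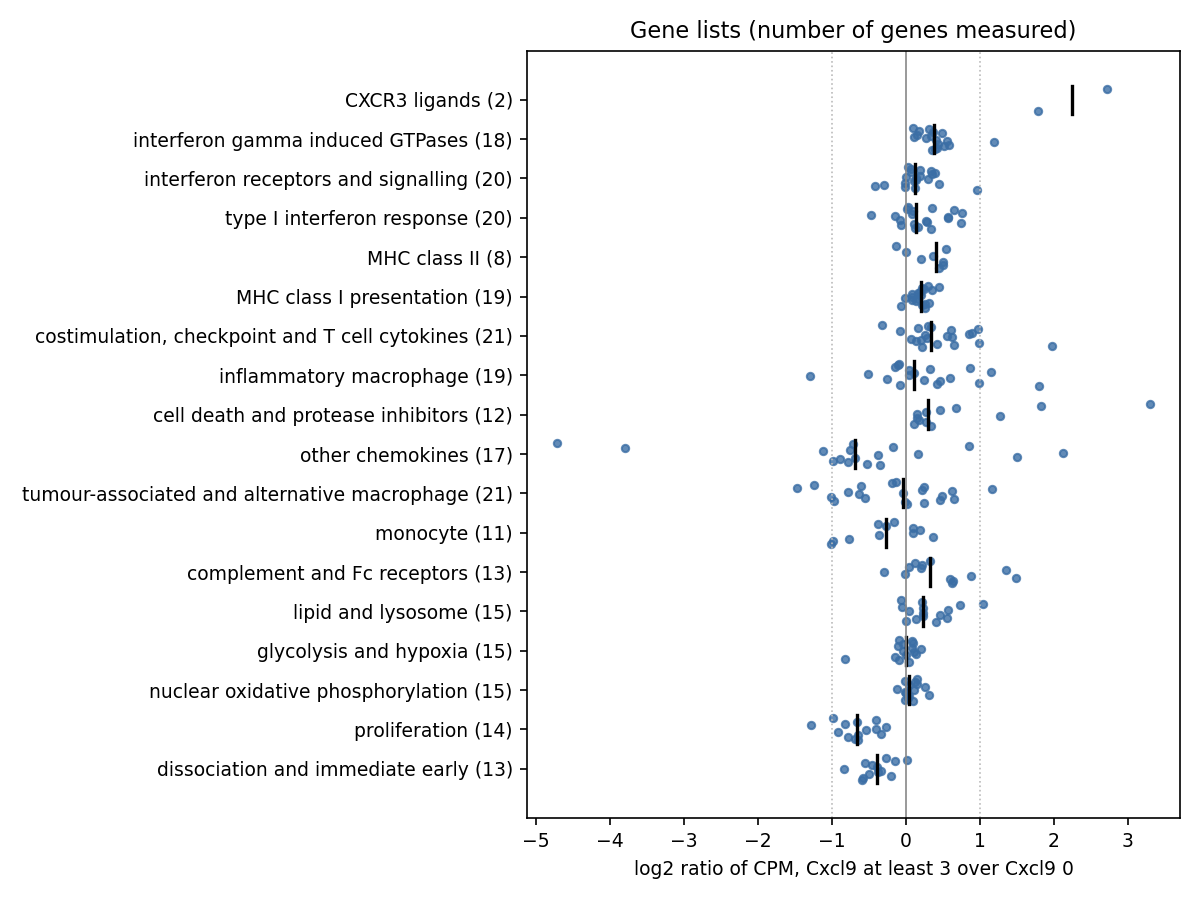
Log2 ratio of CPM, Cxcl9 macrophages over gated cells without Cxcl9 (x), for each measured gene (points) of 18 gene lists (y, with the number of genes measured); black bars are list medians and dotted lines 2-fold. The Cxcr3 ligands stand highest with a median of 2.25, other chemokines lie mostly left of 0 and the 14 proliferation genes all lie left of 0.

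The interferon gamma induced GTPases, which attack microbes inside cells, were slightly higher throughout than in the cells without Cxcl9. All 18 had a ratio above 0, with a median log2 ratio of 0.38, 12 had an interval above 0, and 1 was at least 2-fold higher. That gene, Gbp5, was at 166 CPM against 72.9 CPM, a log2 ratio of 1.19. Over all genes 45.1% had a ratio above 0 and 10.1% an interval above 0. Without the cells that carried neutrophil or NK RNA, 10 of the 18 intervals were above 0, and over all genes 661 of 8792. Gbp2 was at 562 CPM against 419 CPM, and it was found in 74.2% of the cells without Cxcl9 and in 87.0% of carcinoma cells. These genes were thus detected in cells with and without Cxcl9.

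Interferon receptors and signalling genes differed little. None of 20 was 2-fold higher or lower and the median log2 ratio was 0.13. Irf1, a transcription factor induced by interferons, was at 252 CPM against 256 CPM. Batf2 came nearest to 2-fold, at 83.2 CPM against 42.9 CPM. The receptor chain Ifngr1 was at 153 CPM against 188 CPM and Ifngr2 at 126 CPM against 92.95 CPM. The type I interferon response genes had a median of 0.14 with none of 20 past 2-fold, and Isg15 was at 432 CPM against 291 CPM.

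Of 8 MHC class II genes measured, which present antigen to helper T cells, 7 had a ratio above 0 and 6 an interval above 0, none was past 2-fold, and the median log2 ratio was 0.40. Cd74, the invariant chain, was at 16533 CPM against 12155 CPM, and H2-Eb1 at 4220 CPM against 2901 CPM. H2-DMb2 was equal at 121 CPM in both sets. H2-Oa was at 24.2 CPM against 26.6 CPM, a log2 ratio of -0.13. The 19 MHC class I genes had a median of 0.20, with 17 ratios and 15 intervals above 0. Without the cells that carried neutrophil or NK RNA, 9 of the 19 intervals were above 0, and over all genes 661 of 8792. Some of the H2 class I genes are close copies, and reads could be split between those.

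Of 21 costimulation, checkpoint and T cell cytokine genes, 1 (Cd40) was at least 2-fold higher, none was 2-fold lower, and the median log2 ratio was 0.33. Cd86, a ligand of Cd28 on T cells, was at 164 CPM against 82.9 CPM, a log2 ratio of 0.99. Pdcd1lg2 (PD-L2) was at 48.7 CPM against 24.9 CPM, while Cd274 (PD-L1) was at 194 CPM against 167 CPM. Il18bp, which binds and blocks interleukin 18, was at 586 CPM against 323 CPM, and Il27, a cytokine subunit, at 41.8 CPM against 22.5 CPM. Il12b, a subunit of interleukin 12, had 11 UMIs in the 491 cells, too few to be measured.

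Of 19 inflammatory macrophage genes, 2 were at least 2-fold higher and 1 at least 2-fold lower, with a median log2 ratio of 0.11. Beside Acod1, the second was Nos2, which makes nitric oxide, at 106 CPM against 47.6 CPM. Its log2 ratio of 1.16 was 0.82 without the 5 cells that held most. Il6 was the one lower, at 17.9 CPM against 44.2 CPM, a log2 ratio of -1.29. With at most 1 epithelial UMI per cell the log2 ratio of Il6 was -0.23, no longer 2-fold, and over all alternatives it ran from -2.72 to -0.23. Il1b was at 1552 CPM against 1847 CPM and Tnf at 52.1 CPM against 56.0 CPM. Clec4e, a receptor for mycobacterial and dead-cell glycolipids, was at 176 CPM against 88.7 CPM, a log2 ratio of 0.99.

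Among 12 cell death and protease inhibitor genes, Ubd, Serpina3g and Fas were at least 2-fold higher. Fas, the death receptor, was at 57.4 CPM against 23.8 CPM. Of 13 complement and Fc receptor genes, C2 and Cfb were at least 2-fold higher, with a list median of 0.32. C2 was at 25.2 CPM against 8.92 CPM and Cfb at 21.9 CPM against 8.55 CPM, both part of the enzymes that activate C3. C3 itself was at 709 CPM against 385 CPM, and C1qa at 3527 CPM against 2290 CPM.

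Tumour-associated and alternative macrophage genes were mixed: 1 of 21 was at least 2-fold higher, 3 at least 2-fold lower, and the median log2 ratio was -0.03. The interval lay below 0 for 9 genes and above 0 for 7, and the list summed to 7073 CPM against 9009 CPM. Without the cells that carried neutrophil or NK RNA, 11 intervals were below 0 and 6 above. Arg1, the arginase linked to suppression of T cells, was at 1504 CPM against 1496 CPM, a log2 ratio of 0.01 (-0.04 to 0.06), or -0.12 (-0.17 to -0.06) without the cells that carried neutrophil or NK RNA. Spp1 (osteopontin) was at 584 CPM against 887 CPM, a log2 ratio of -0.60. Ms4a7, a marker of brain-border and infiltrating macrophages, was at 150 CPM against 66.9 CPM. Pf4, Thbs1 and Gpnmb were the 3 lower genes, at 37.8, 30.8 and 22.2 CPM against 106, 73.3 and 45.2 CPM.

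Monocyte genes were lower in part. Ccr2 was the 1 of 11 past 2-fold, at 156 CPM against 314 CPM, and the list median was -0.27. Ly6c2 was at 1191 CPM against 1534 CPM. Chil3, counted in the tumour-associated and alternative list above, was at 1139 CPM against 2232 CPM, a log2 ratio of -0.97. Lyz2 was slightly higher, at 8792 CPM against 7714 CPM. Of 15 lipid and lysosome genes only Lpl passed 2-fold, at 14.6 CPM against 7.06 CPM, and Apoe was at 21193 CPM against 19216 CPM. No glycolysis or oxidative phosphorylation gene of 15 each was past 2-fold, with medians of 0.00 and 0.05.

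Each of 14 proliferation genes was lower in the Cxcl9 macrophages. Their median log2 ratio was -0.66, and 1 (Rrm2) was past 2-fold. Without the cells that carried neutrophil or NK RNA the median was -0.41, none of the 14 was past 2-fold, and Mki67 turned to 0.14. The 13 immediate early genes, which also mark handling of tissue, had a median of -0.39, with Fos at 1669 CPM against 2175 CPM.

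The 10 lowest genes were Camp, Ngp, BC117090, BC100530, Gm5483, S100a9, Stfa2, Serpinb1a, Orm1 and Mrgpra2b, several of them known from neutrophil granules. Camp was at 17.9 CPM against 1473 CPM and S100a9 at 168 CPM against 6620 CPM, while S100a9 was found in 53.2% and 54.2% of cells. Without the cells that carried neutrophil or NK RNA, the log2 ratios of Ngp, BC117090, BC100530 and Orm1 were 0.28, 0.53, 0.06 and 0.20. Those of the other 6 stayed below 0, at -0.07 for Camp, -0.56 for S100a9, -0.37 for Stfa2, -0.26 for Gm5483, -1.17 for Serpinb1a and -1.08 for Mrgpra2b. Ngp and Camp were among the 7 neutrophil genes by which these cells were left out. Their own change follows from that choice and is no check. The lowest genes that remained were then Ctsk at -4.58, Cxcl13 at -3.95, Pf4 at -1.65, Mmp8 at -1.52 and Abcd2 at -1.49. Of the 713 Ctsk UMIs in the cells without Cxcl9, 671 lay in 1 cell.

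Within the Cxcl9 macrophages, many of the same genes stood higher in cells with more Cxcl9. The cells were split into 204 with 3 to 5 Cxcl9 UMIs, 208 with 6 to 14 and 79 with 15 or more, with median depths of 5000, 5587.5 and 6362 UMIs. Cxcl11 was at 241, 380 and 874 CPM over these 3 groups. Cxcl10 was at 325, 478 and 809 CPM. Acod1 was at 95.6, 168 and 354 CPM and Serpina3g at 407, 554 and 984 CPM. All 4 genes stood higher in each group than in the one with less Cxcl9. The groups were cut on the Cxcl9 UMIs that chose the cells. The 4 genes are among the 12 highest against the cells without Cxcl9, so their order is no independent check. Gbp5 was at 114, 148 and 317 CPM, and Saa3, an acute-phase protein, at 3492, 5423 and 10619 CPM. For Saa3, 5 cells held 21.9% of the UMIs, and its log2 ratio over the cells without Cxcl9 was 0.32 with them and -0.01 without. Ubd was at 5.17, 10.9 and 223 CPM, its top group holding the few cells named above.

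Other genes did not follow Cxcl9. Cd74 was at 17120 CPM with 3 to 5 UMIs of Cxcl9 and 14097 CPM with 15 or more, and Arg1 at 1592 and 1164 CPM. Ly6c2 was at 1573 and 1018 CPM and Ccl2 at 468 and 237 CPM. On cells thinned to 2000 UMIs, the rank correlation of Cxcl9 with Cxcl11 over the 491 cells was 0.31, with Serpina3g 0.18, with Cxcl10 0.16 and with Ccl8 -0.05. With Acod1 it was 0.10 and with Vcam1 -0.03. The weak values are no finding in sparse counts, and the rank of Ccl8 did not follow its group levels of 501, 899 and 1740 CPM.

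**Figure D3:**
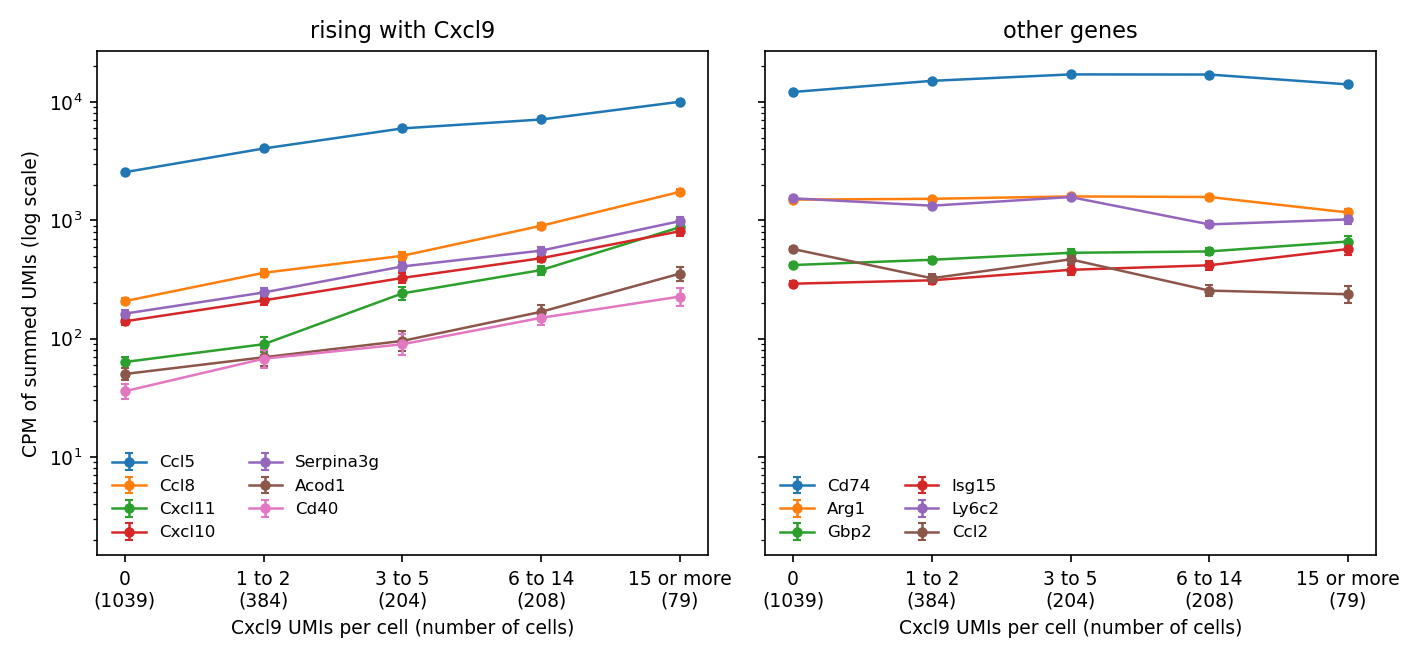
Level of 13 genes (y, CPM of summed UMIs, log scale, bars are exact Poisson 95% intervals) in gated cells grouped by Cxcl9 UMIs (x, number of cells in brackets). In the left panel Cxcl11 goes from 63.4 CPM at 0 to 874 CPM at 15 or more, with the other genes also higher; in the right panel Arg1 stays between 1164 and 1592 CPM.

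Ccl8 divided the Cxcl9 macrophages into unlike cells. At least 3 Ccl8 UMIs were held by 77 of them (15.7%), against 5.29% of the cells without Cxcl9, and 345 held none. The 77 cells had Ly6c2 at 58.4 CPM and the 345 at 1583 CPM, a log2 ratio of -4.74 (-5.29 to -4.27). Chil3 was at 65.2 and 1478 CPM, and Ccr2 at 25.8 and 198 CPM. These 3 genes were lower in the Ccl8 cells. Lyz2, the most abundant gene of the monocyte list, was higher at 13049 and 7360 CPM, and the list summed to 16303 and 14141 CPM. Other macrophage genes were higher in them: Vcam1 was at 1001 and 172 CPM, Ms4a7 at 393 and 78.9 CPM, Mrc1 at 416 and 139 CPM and Selenop at 761 and 231 CPM. Cxcl9 was at 1310 and 1512 CPM, and Cd40 at 132 and 144 CPM. Cxcl10 and Cxcl11 together were lower in the Ccl8 cells, at 652 and 961 CPM. Median depth was 7331 UMIs in the 77 cells and 5276 UMIs in the 345, and the part of depth was not tested.

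Arg1 and Cxcl9 were found in the same cells. At least 10 Arg1 UMIs were held by 162 of the 491 (33.0%) and by 29.8% of the cells without Cxcl9, while 27.7% and 38.7% held none. The 162 cells, against the 201 with 0 to 2 Arg1 UMIs, had Ccl6 at 1719 and 564 CPM, Fabp5 at 307 and 102 CPM and Abca1 at 148 and 46.6 CPM. They were lower for Ccl2 (203 and 509 CPM), Ccl12 (255 and 691 CPM), Cxcl10 (290 and 598 CPM) and Cd40 (96.6 and 185 CPM). Cxcl9 itself was at 1200 and 1791 CPM, with a median of 6 Cxcl9 UMIs per cell in both groups. Nos2, which competes with Arg1 for arginine, had a UMI in 110 cells, of which 86 also held Arg1. Of all 491 cells, 136 held no Arg1 UMI. Among the cells without Cxcl9, 138 held Nos2 and 106 of these also held Arg1, so the overlap was found in both sets. Median depth was 6802.5 UMIs in the Arg1-high cells and 4762 UMIs in the others, and the part of depth was not tested.

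**Figure D4:**
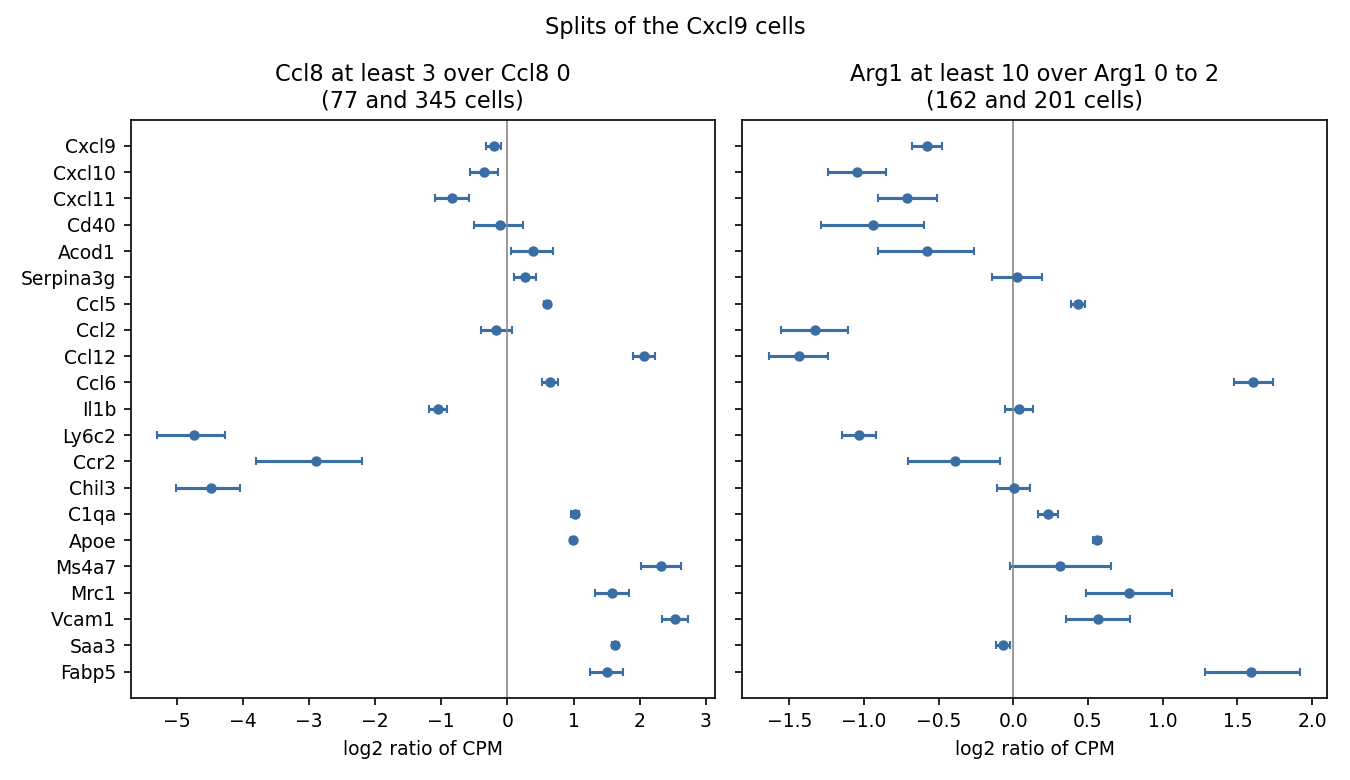
Log2 ratio of CPM (x, bars are conditional exact binomial 95% intervals) for 21 genes (y) between groups of Cxcl9 macrophages, split by Ccl8 (left, 77 and 345 cells) and by Arg1 (right, 162 and 201 cells). Ly6c2, Chil3 and Ccr2 lie far left and Vcam1 and Ms4a7 far right in the Ccl8 split, while Ccl6 and Fabp5 lie right and Ccl2 and Ccl12 left in the Arg1 split; the x axes differ.

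Cxcl11, Ccl5 and Cd40 were higher in the Cxcl9 macrophages than in like cells of the library. Of cells without Cxcl9, 310 had at least 10 Arg1 UMIs, 16 had at least 3 Ccl8 UMIs with at most 2 of Arg1, and 449 had at least 5 UMIs of Ly6c2 and Ccr2. Cxcl11 was at 54.5, 114 and 87.2 CPM in these 3 sets, and Ccl5 at 3587, 1354 and 1938 CPM. Cd40 was at 35.4, 38.0 and 28.3 CPM. Each value was below that of the Cxcl9 macrophages (419, 7229 and 141 CPM). The 3 sets are parts of the cells without Cxcl9, against which these genes were chosen as high. Ccl5 and Cd40 were also given as markers, so this order is no independent check. The set of 16 cells gives wide intervals, and its Saa3 level of 12574 CPM was above the 5653 CPM of the Cxcl9 macrophages. The interferon gamma induced GTPases summed to 3324, 5351 and 4091 CPM in the 3 sets. They summed to 4979 CPM in the Cxcl9 macrophages and 5645 CPM in the microglia set.

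The microglia set of 214 cells was near the Cxcl9 macrophages for Cxcl10 and below them for Cxcl11. Its Cxcl10 level was 461 CPM, within the interval of the Cxcl9 macrophages, while its Cxcl11 level was 41.5 CPM and its Cxcl9 level 273 CPM. Of these cells, 45 (21.03%) held at least 3 Cxcl9 UMIs. In the carcinoma set 143 of 3903 cells (3.66%) did, and in the T cell set 1 of 155. Over the whole library 1161 barcodes held at least 3 Cxcl9 UMIs. Of the 884 that passed the myeloid gate, 273 failed the carcinoma gate, 139 the microglia gate and 57 the Csf3r gate, so the 491 cells are one portion of the Cxcl9 signal.

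**Figure D5:**
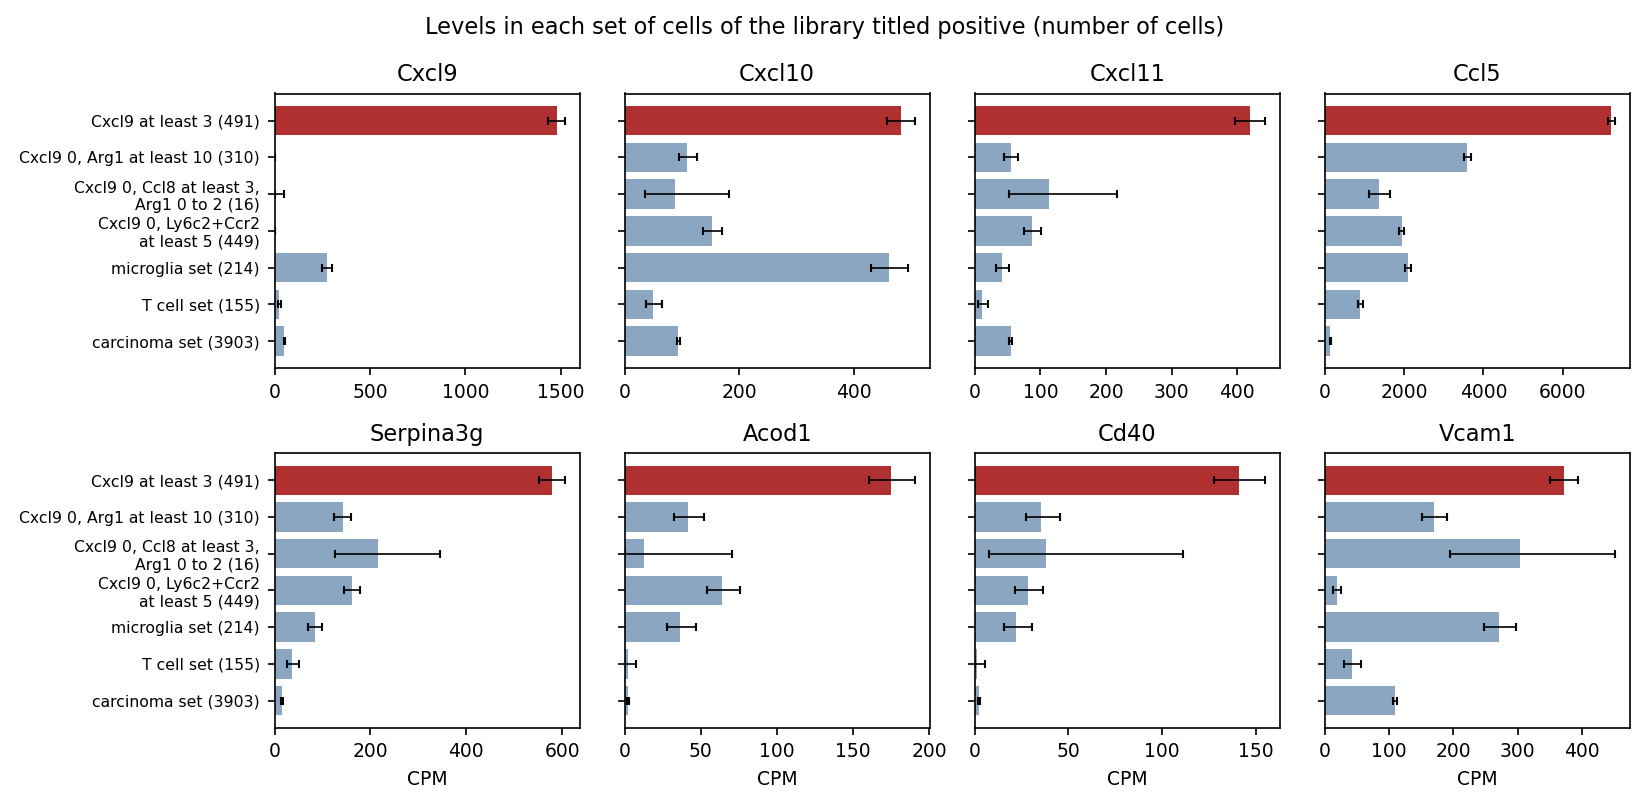
Level of 8 genes (x, CPM, bars start at 0, error bars are exact Poisson 95% intervals) in the Cxcl9 macrophages (red) and 6 other sets of the library titled positive (blue, number of cells in brackets). Cxcl11, Ccl5, Serpina3g, Acod1 and Cd40 are highest in the Cxcl9 macrophages, and Cxcl10 in the microglia set reaches 461 CPM against their 481 CPM; Cxcl9 is 0 in 3 of the sets by their definition.

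The inducer and a receptor of these chemokines, and the ligand of Cd40, were also read. Ifng (interferon gamma) was at 740 CPM in the T cell set, where 43.2% of cells held a UMI, and at 2.32 CPM in the Cxcl9 macrophages. Cxcr3, the receptor, was at 73.1 CPM in the T cell set, 42.6 CPM in the carcinoma set and 4.31 CPM in the Cxcl9 macrophages. Cd40lg, the ligand of Cd40, was at 4.94 CPM in the T cell set and had no UMI in the Cxcl9 macrophages. These 3 genes were chosen after the values of the Cxcl9 macrophages had been seen.

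The library titled control gave few such cells. Of its 10417 barcodes, 177 passed the first 4 gates and 3 of these held at least 3 Cxcl9 UMIs (1.69% of 177, exact interval 0.351 to 4.87%). None held 1 or 2. The 3 cells held 3, 5 and 12 Cxcl9 UMIs at depths of 4876, 3741 and 2664 UMIs. Only the cell with 12 held Cxcl10, with 24 UMIs, and none held Ccl5 or Ccl8. The cell with 5 carried 21 UMIs of dendritic cell markers. In all, 10 barcodes of that library held at least 3 Cxcl9 UMIs, and 6 of them failed the microglia gate. With 3 cells no profile can be compared, and with 1 library each the share cannot be told apart from a difference between libraries.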

How the data were processed

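The deposited values are raw UMI counts, made with Cell Ranger on GRCm38 per the submitters' processing notes. Gene annotation, cell calling and strand are not stated in the labels. All barcodes were used, and the gates stand as described in the report. The members and gene lists were chosen with earlier results of these data known.

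For each set of cells, UMIs were summed and scaled to CPM with exact Poisson 95% intervals. Log2 ratios used 0.5 counts added to each sum, with conditional exact binomial intervals. These were tried on simulated sums drawn independently for each gene, with no cells in the simulation. It cannot show how the intervals do where the UMIs of a gene lie in few cells. Genes needed 50 UMIs in both sets together, and Cxcl9 and the gate genes were left out. Genes named were any of the 18 lists, the 12 highest and 10 lowest ratios (100 or more UMIs in the higher set), and the 10 most correlated with Cxcl9. The lowest genes without neutrophil or NK cells, and Ifng, Cxcr3 and Cd40lg, were added after the values were seen.

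Doublets called by Scrublet in scanpy 1.11.5 numbered 336 (3.10%) of the library, 8 (1.63%) of the Cxcl9 macrophages and 19 (1.83%) of the cells without Cxcl9. They were kept and left out as an alternative. Other alternatives changed the gates, thresholds, scaling and filters, and those without neutrophil, NK or cycling cells were added after seeing the data. Gene positions came from GENCODE M21, in which 18569 of 18588 identifiers were found. Python 3.11.15, scipy 1.17.1 and pandas 2.3.3 were used.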

Additional observations from a re-analysis of the deposited data

How the results depend on the processing

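The 12 highest genes kept a log2 ratio of at least 1 in 178 of 180 values under 15 alternatives, the lowest being 0.87 for Nfkbie on thinned cells. Of 735 values for 49 genes, 7 reversed, counting only genes whose own interval left out 0: Ngp 0.28, BC117090 0.53, BC100530 0.0625, Orm1 0.20 and Mki67 0.14 without neutrophil and NK cells, Mki67 0.53 without cycling cells, and Pf4 0.63 with at most 1 epithelial UMI. Ngp was among the genes by which neutrophil cells were left out, and Mki67 among those for cycling cells. The reversals of Ngp, and of Mki67 without cycling cells, are therefore no independent check. Genes near 0 also crossed it, such as Arg1 (0.01, range -0.27 to 0.09) and Irf1 (-0.02, range -0.10 to 0.11). Of list medians of at least 0.1 in size, the inflammatory one reversed from 0.11 to -0.013 without cycling cells. The causes were not tested, beyond what leaving those cells out shows.

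Counts depended on thresholds, and the number of genes measured can change with them, so the counts below are not shares. The main setting had 9058 genes measured. Genes at least 2-fold higher (60) became 93 and 154 with at least 5 and 10 Cxcl9 UMIs, and 1782, 146 and 26 with minimums of 1, 20 and 200 UMIs per gene. Genes at least 2-fold lower (194) became 401 with at least 10 Cxcl9 UMIs, 91 without neutrophil and NK cells, 123 without cycling cells, 108 on thinned cells, 308 with depth-weighted comparison cells, and 1951, 433 and 59 with those minimums. List genes at least 2-fold higher (15) became 27 with at least 10 Cxcl9 UMIs, while the count over all genes went from 60 to 154. List genes at least 2-fold lower (9) became 15 and 18 with at least 5 and 10 Cxcl9 UMIs, 14 with at most 1 epithelial UMI and 16 with depth weighting. Over all genes the lower count went from 194 to 401 with at least 10 Cxcl9 UMIs and to 308 with depth weighting. The cells numbered 144 with at least 10 Cxcl9 UMIs and 120 with at most 1 epithelial UMI. Depth limits genes with few UMIs and the sets of 16 and 3 cells. No paired analysis was possible because each group had 1 library.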
